A study of Mus musculus with 4 samples.

Results

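The 41 genes described here encode the machinery that builds, transfers and trims N-linked glycans, the sugar chains that secretory and membrane proteins carry on asparagine. They were chosen by name, as non-control array rows whose gene name is on the list, and all 41 were found among 36163 gene names on the array. Each gene is represented by its brightest probe. C57BL/6 mice aged 8 to 10 weeks gave the cells, which were sorted by FACS from the submandibular salivary gland before total RNA was taken. Submandibular gland stem cells were on 2 arrays and non-stem cell epithelia of the same gland on 2 others, and the labels name no treatment. The sources used here name neither the sort markers nor the number of animals or any pooling. The p-values therefore cover the spread between these arrays alone, and that spread may be technical.

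N-glycan synthesis starts on the cytosolic face of the endoplasmic reticulum, where sugars are added one after another to the lipid dolichol. The lipid-linked chain is flipped into the lumen, lengthened there with mannose and glucose, and moved in one step onto the growing protein by the oligosaccharyltransferase complex. Glucosidases and mannosidases then trim the chain in the endoplasmic reticulum and Golgi, and Golgi transferases rebuild it with branches. Salivary acinar cells and granular duct cells export large amounts of glycoprotein, and this machinery is known to be abundant in such secretory cells.

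The arrays carried 4 single-channel hybridisations from 1 slide, and their number limits the precision of every value. Levels are log2 signal relative to the array's 75th percentile, so 0 is the 75th percentile and differences are stem cells minus non-stem cell epithelia. That percentile lay at a signal of 34.0 and 48.9 on the stem cell arrays and at 84.2 and 71.1 on the others. Spike-in control RNA stood higher relative to it in stem cells, by a median of 2.25 on the log2 scale over 10 spike-ins (0.64 to 2.53), and the part of this in the results was not tested. Of the sort antigens commonly used for salivary progenitors, Ly6a (Sca-1) and Kit were higher in stem cells and Cd24a was lower. The basal duct and myoepithelial list held 8 genes, of which Krt5, Krt14, Krt17 and Cdh3 rose, with Krt14 up by 3.17 ± 0.16 (SE). Trp63 and the contractile genes Acta2, Myh11 and Cnn1 did not pass the test, at log2 differences of 0.56, -0.11, -0.21 and -0.36. Of 5 fibroblast markers, Dcn rose by 2.15 ± 0.16, Col1a2 differed by -0.49 without passing, and Col1a1, Pdgfra and Lum were above background nowhere. The summed fibroblast signal, in multiples of the array's 75th percentile, was 19.2 to 20.5 in stem cells against 8.05 to 8.50. The endothelial markers Cdh5 and Emcn and the leukocyte markers Ptprc, Cd68 and Lyz2 were above background nowhere. The endothelial Kdr and the leukocyte Cd3e were so on all 4 arrays and did not pass the test. Pecam1 (endothelial) and Cd79a (leukocyte) were above background on 1 stem cell array and both non-stem arrays and did not pass either. Tek (endothelial) was so on 1 stem cell array only and was not tested. Of 5 epithelial markers, Krt8, Krt18 and Krt19 rose by 0.59, 0.80 and 1.84, and Epcam fell by 1.22 ± 0.19. Cdh1 differed by 0.28 without passing. The part of these cell types in the results was not tested.

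Most tested members were lower in stem cells, and Man1a2, Man2a1 and Man2a2 were higher. Testing required a probe well above background on 2 or more of the 4 arrays, and 39 of the 41 members met this. At a limma p below 0.05, adjusted by Benjamini-Hochberg across the 17306 genes that met it, 26 members fell and 3 rose. Over all genes tested the same rule called 16.7% lower and 14.4% higher, 31.1% in either direction. The median log2 difference of the tested members was -0.77, against -0.01 over all genes tested, and 16 members fell with a fitted difference of at least 2-fold (9.48% of all genes did). Alg12 is among the 16, although its signal in stem cells was at background. The bound of 1.42-fold on its fall rests on stem cells replicate 2 alone. A rise of at least 2-fold was seen in 1 member, Man2a2 (7.10% of all genes). Without non-stem cell epithelia replicate 1 the members' counts were 10 lower and 1 higher, and without replicate 2 they were 8 lower and 0 higher. The same fits called 5.75% and 4.35% of all genes lower, so the background shrank as well. With no filter on dim probes 8 members were lower and 0 higher, against 2.05% and 2.27% of all genes.

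**Figure D1:**
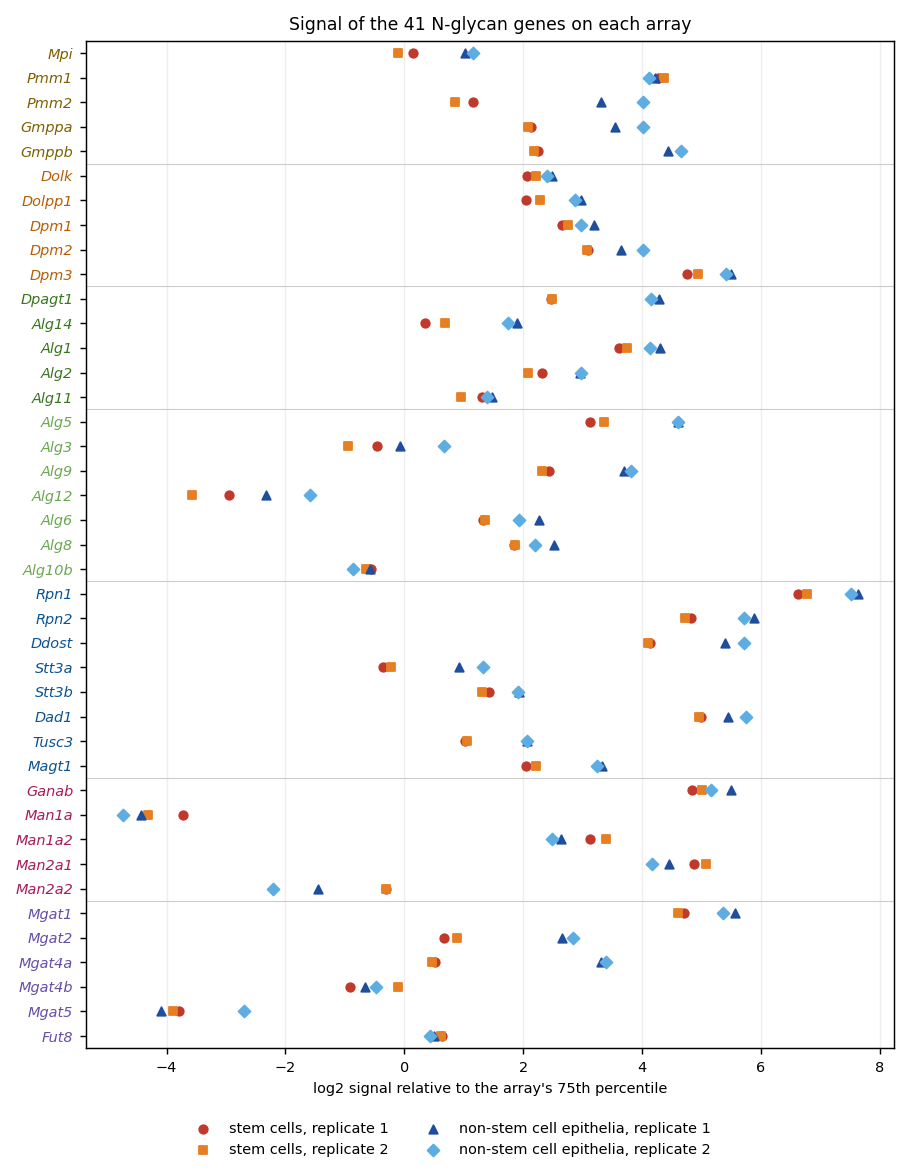
Log2 signal relative to the array's 75th percentile for the 41 members, with 1 point per array and rows grouped and coloured by step of the pathway, from sugar donor supply at the top to branching and core fucose at the bottom. In 32 of the 39 tested members both stem cell points lie left of both non-stem points, and in 5 they lie to the right.

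Both stem cell arrays lay below both non-stem arrays in 32 of the 39 tested members, an arrangement found in 36.1% of all genes tested. In 5 members both stem cell arrays lay above both others, against 35.1% of all genes, and in 2 the groups overlapped. The 22 genes of lipid-linked assembly had a median log2 difference of -0.76, with 15 lower and 0 higher. The 8 oligosaccharyltransferase genes had a median of -1.03, and 8 of 8 were lower. The 9 tested genes of trimming and Golgi processing had a median of 0.06, with 3 lower and 3 higher. That last median turned to -0.04 with normexp background correction, an alternative way of taking off the background, and to -0.35 without stem cells replicate 2, so it has no settled sign.

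The enzymes that make the mannose donor included the largest falls among the lipid-linked assembly genes. GDP-mannose is made from mannose phosphate by a mutase and a pyrophosphorylase. Pmm2, the phosphomannomutase whose loss in people causes the commonest congenital disorder of glycosylation, had log2 levels of 1.16 and 0.86 in stem cells against 3.31 and 4.01 in non-stem cell epithelia. The groups were far apart, although the non-stem arrays themselves differed by more than the stem cell arrays did. Pmm2 fell by 2.65 ± 0.27 (SE, n = 2 arrays per group), or 6.29-fold, with limma adjusted p = 0.00231. The probe of Pmm2 maps to chr16:8657332-8657390 (mm9). Gmppb, the catalytic subunit of GDP-mannose pyrophosphorylase, stood at 2.25 and 2.18 against 4.44 and 4.66, again with no overlap. It fell 5.05-fold, a log2 difference of -2.34 ± 0.16 (limma adjusted p = 0.000753), with its probe at chr9:107953830-107953889. Gmppa, the regulatory relative of Gmppb, fell by 1.67 ± 0.21, and its second probe differed by -1.73. Mpi, the isomerase that links mannose phosphate to glycolysis, fell by 1.08 ± 0.17. Pmm1, the other phosphomannomutase, did not pass the test. Its levels were 4.27 and 4.37 against 4.22 and 4.11, a log2 difference of 0.16 with a 95% interval of -0.23 to 0.54. The dimmer probe of Pmm1 differed by -0.1.

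The genes of the dolichol carrier differed less. Dolpp1, the phosphatase that recycles dolichol after transfer, fell by 0.75 ± 0.17. Of the dolichol phosphate mannose synthase, the enzyme that supplies mannose inside the lumen, the stabilising subunits Dpm2 and Dpm3 fell by 0.74 ± 0.18 and 0.61 ± 0.16. Its catalytic subunit Dpm1 had a log2 difference of -0.37 (95% interval -0.78 to 0.04) and its weaker probe one of 0.09. Dolk, the kinase that makes dolichol phosphate, differed by -0.30 (-0.69 to 0.09). For all 5 genes the stem cell arrays lay below the non-stem arrays. The calls of Dpm2 and Dpm3 were lost with the percentile taken over detected probes, and that of Dpm2 with quantile normalization too.

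On the cytosolic face, the first enzymes of the chain fell more than the later ones in size of difference, though these differences between genes were not tested. Dpagt1 adds the first sugar to dolichol and is the target of the inhibitor tunicamycin. Its levels were 2.47 and 2.48 in stem cells against 4.29 and 4.15 in the others. Replicates were close together and the groups did not overlap. Dpagt1 fell 3.35-fold, by 1.75 ± 0.15 on the log2 scale (limma adjusted p = 0.00146), with its probe at chr9:44141547-44141606. Alg14, the membrane anchor of the transferase that adds the next sugar, fell by 1.30 ± 0.18. Alg1 and Alg2, which add the first mannoses, fell by 0.55 ± 0.16 and 0.77 ± 0.16. The call of Alg1 was at the edge of the threshold (adjusted p = 0.0498) and was lost under 7 of 13 alternatives. Alg11, which finishes the cytosolic part, differed by -0.31 (95% interval -0.76 to 0.14).

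Of the genes for the luminal part of assembly, with which Alg5 is grouped, Alg9 and Alg5 fell, and their replicates were close together. Alg9, a mannosyltransferase, stood at 2.44 and 2.31 against 3.70 and 3.82 and fell 2.62-fold (limma adjusted p = 0.00311). Alg5, which makes dolichol phosphate glucose on the cytosolic face as the glucose donor for the lumen, stood at 3.12 and 3.36 against 4.61 and 4.60 and fell 2.57-fold (limma adjusted p = 0.00383). Neither gene's groups overlapped. Alg6, which adds the first glucose, fell by 0.76 ± 0.18, and its dimmer probe was above background on 2 of the 4 arrays only, so no difference is given for it. Alg8, which adds the next glucose, differed by -0.51 (95% interval -0.94 to -0.07, adjusted p = 0.0805). Alg10b, which adds the last one, had overlapping groups and a log2 difference of 0.12 (-0.31 to 0.56). Alg3, the first mannosyltransferase of the lumen, stood at -0.46 and -0.95 against -0.08 and 0.67 and missed the threshold (95% interval of the difference -1.78 to -0.22, limma adjusted p = 0.0602). Alg12, another mannosyltransferase, was not well above background on either stem cell array, which gives a bound of 1.42-fold on its fall. Such a bound sets the brighter group's mean against the lowest signal that counts as above background, or the probe's own signal where that is higher. That lowest signal was -1.81 on stem cells replicate 1, above the non-stem mean of Alg12 (-1.95), and -3.10 on replicate 2. The bound therefore rests on replicate 2 alone. The limma adjusted p = 0.0325 of Alg12 does not test the bound, and with normexp its log2 difference was 0.08.

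The oligosaccharyltransferase, which moves the finished chain to the protein, was the step in which every gene fell. Stt3a and Stt3b are alternative catalytic subunits, of which Stt3a acts as the protein enters the endoplasmic reticulum and Stt3b on sites that were missed. Stt3a had levels of -0.36 and -0.22 in stem cells against 0.92 and 1.32 in the others, with a clear gap between groups. It fell 2.66-fold, by 1.41 ± 0.20 (limma adjusted p = 0.00588). Stt3b had levels of 1.42 and 1.31 against 1.93 and 1.92 and fell 1.47-fold, by 0.56 ± 0.15 (limma adjusted p = 0.0406). Its second probe differed by -0.86. The stem cell and non-stem arrays of Stt3b were also apart, by a smaller gap.

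Of the shared subunits, Ddost fell most. Ddost, the subunit also known for binding glycated proteins, stood at 4.13 and 4.10 against 5.40 and 5.72 and fell 2.73-fold (limma adjusted p = 0.00391). Rpn1 and Rpn2, the ribophorins that tie the complex to the ribosome and substrate, fell by 0.87 ± 0.16 and 1.03 ± 0.16. Dad1, a small subunit first described as a defender against cell death, fell by 0.62 ± 0.17. Tusc3 and Magt1, alternative oxidoreductase subunits of the Stt3b complex, fell by 1.03 ± 0.15 and 1.15 ± 0.16, and the second probe of Magt1 differed by -1.11. Tusc3 was the tightest of these, at 1.02 and 1.05 against 2.07 and 2.07. The calls of Stt3b and Dad1 were lost with the percentile over detected probes and with quantile normalization, which left 6 of 8 subunits lower. Without non-stem cell epithelia replicate 1, 2 of 8 were called lower, and without replicate 2, 1 of 8, while the log2 difference stayed negative in 8 of 8.

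**Figure D2:**
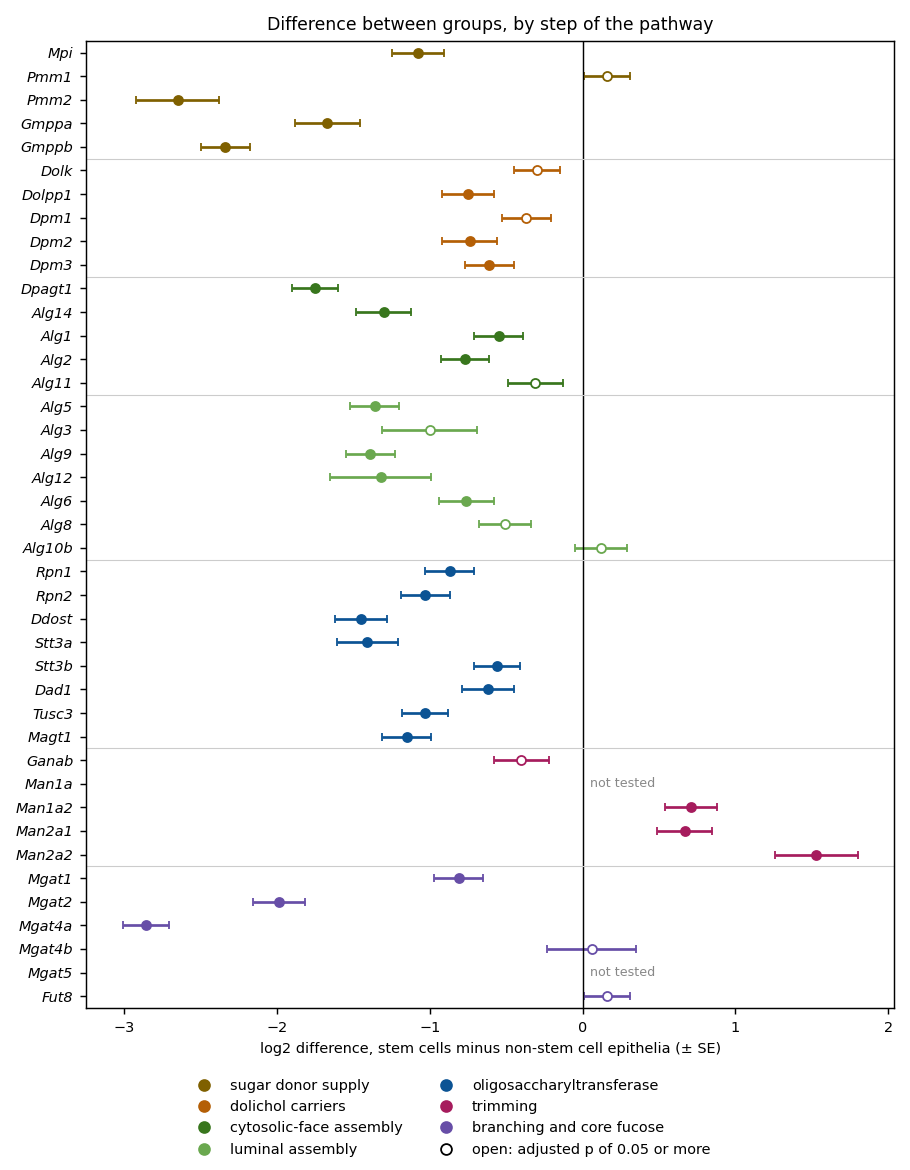
Log2 difference, stem cells minus non-stem cell epithelia, with its standard error from limma for the 39 tested members, coloured by step, with filled points for adjusted p under 0.05 and open points otherwise. The 8 oligosaccharyltransferase genes lie between -1.45 and -0.56, while Man1a2, Man2a1 and Man2a2 are the 3 filled points right of 0.

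The 3 members that rose encode Golgi mannosidases. Man2a2, 1 of the pair of genes for alpha-mannosidase II, which trims mannose after the first branch has been started, had levels of -0.30 and -0.30 in stem cells against -1.45 and -2.21 in the others. Both stem cell arrays lay above both others, and the spread came from the non-stem arrays. Man2a2 rose 2.89-fold, by 1.53 ± 0.27 (limma adjusted p = 0.0125), with its probe at chr7:87495577-87495636. The second probe of Man2a2 was above background nowhere, so the rise rests on the brighter probe alone. Man2a1, the other gene of that pair, stood at 4.87 and 5.08 against 4.45 and 4.17 and rose 1.59-fold (limma adjusted p = 0.0419). Man1a2, a mannosidase that acts before it, stood at 3.13 and 3.40 against 2.63 and 2.49 and rose 1.63-fold (limma adjusted p = 0.0312). Its second probe differed by 0.62. In none of these genes did the groups overlap. With normexp the log2 differences were still above 0, at 0.20 for Man1a2 and 0.16 for Man2a1, but those calls were lost (limma adjusted p = 0.407 and 0.528). Each of the 3 rises lost its call without non-stem cell epithelia replicate 2, and those of Man1a2 and Man2a1 also without non-stem replicate 1 and without stem cells replicate 2. No array had Man1a well above background, so it was not tested. Ganab, the catalytic subunit of glucosidase II, differed by -0.40 (95% interval -0.86 to 0.05), and its second probe by -0.56.

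Among the transferases that build branches, Mgat4a had the largest fall of the 39 tested members. Mgat4a adds a branch to the first mannose arm. Its levels were 0.51 and 0.46 in stem cells against 3.31 and 3.39 in the others. Replicates were close together and the groups far apart. Mgat4a fell 7.28-fold, by 2.86 ± 0.15 (limma adjusted p = 0.000343), with its probe at chr1:37501674-37501733. Mgat2, which starts the second branch and so allows complex glycans, stood at 0.66 and 0.88 against 2.66 and 2.84 and fell 3.96-fold (limma adjusted p = 0.00136). Mgat1, which starts the first branch, stood at 4.70 and 4.61 against 5.56 and 5.37 and fell 1.75-fold (limma adjusted p = 0.0169). The groups of all 3 were apart. Mgat4b, the paralog of Mgat4a, had overlapping groups and a log2 difference of 0.06 (95% interval -0.67 to 0.79). Fut8, which adds fucose to the core of the chain, differed by 0.16 (-0.21 to 0.52). Mgat5, which adds a further branch, stood at background on all 4 arrays and was not tested.

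Several steps are served by paralogous pairs, and the balance within a pair can be read within an array. The log2 ratio of both probes does not depend on a shift of the whole array, but it shows only unequal change. Of the 7 pairs, 6 had both genes tested, and with 2 arrays against 2 the exact two-sided permutation test cannot go below p = 0.333. The ratio of Pmm1 to Pmm2 was 3.11 and 3.51 on the log2 scale in stem cells against 0.90 and 0.10 in the others. This is a change of 2.81 towards Pmm1 (exact permutation p = 0.333, and 0.333 adjusted over 6 pairs). With the dimmer probe of Pmm1 the change was 2.55. Mgat4a over Mgat4b was 1.42 and 0.56 in stem cells against 3.97 and 3.85 in the others, a change of -2.92 with the same exact p = 0.333. These were the largest changes among the 6 pairs, several times the SD within either group (0.09 to 0.61 on the log2 scale).

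The ratio of Stt3a to Stt3b was -1.78 and -1.53 in stem cells against -1.01 and -0.60 in the others, a change of -0.85 (exact permutation p = 0.333). With the second probe of Stt3b the change was -0.56, and with normexp and its offset of 50 it was -0.16. Man2a1 over Man2a2 changed by -0.86, and by -0.42 with normexp. Gmppa over Gmppb changed by 0.66, so Gmppb was the more reduced of that pair. Tusc3 over Magt1 changed by 0.12, with ratios of -1.02 and -1.16 against -1.25 and -1.17, the smallest of the 6 changes in this setting, and by 0.38 with normexp. Pmm1 over Pmm2 changed by 2.18 with normexp.

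**Figure D3:**
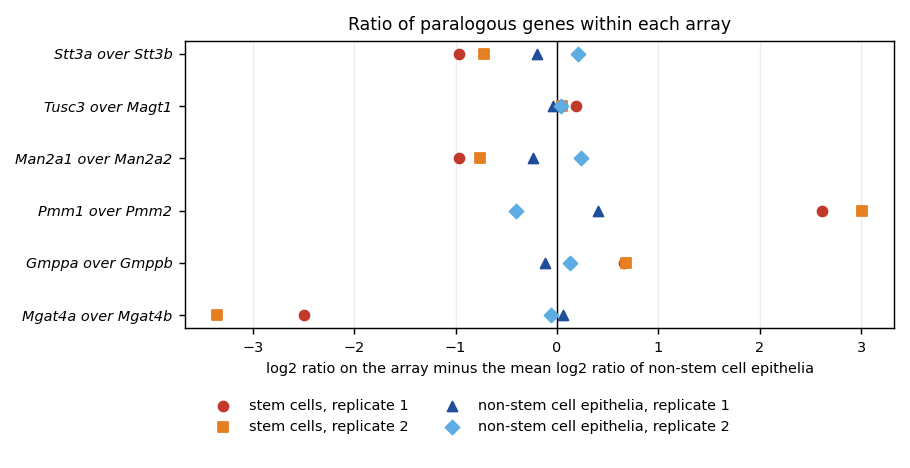
Log2 ratio of 2 paralogous genes on each array, minus the mean log2 ratio in non-stem cell epithelia, for the 6 pairs with both genes tested. Stem cell points lie far to the right for Pmm1 over Pmm2, where the change was 2.81, far to the left for Mgat4a over Mgat4b, where it was -2.92, and near 0 for Tusc3 over Magt1.

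Of 40 other N-glycan pathway genes listed, 36 were tested, 26 fell and 2 rose, against 16.7% and 14.4% of all genes tested. The median log2 difference of the 36 was -0.97. Both rises passed the filter through the stem cell arrays alone, and among the 33 genes above background on all 4 arrays 26 fell and 0 rose. Over all genes that filter gave 19.3% lower and 20.3% higher. Sugar donor enzymes and a transporter were among the falls. Gfpt1, which controls entry of sugar into the hexosamine route, fell by 3.13 ± 0.17. Gnpnat1 and Pgm3, of the same hexosamine route, fell by 2.29 ± 0.17 and 1.82 ± 0.18. Tsta3, an enzyme of GDP-fucose synthesis, fell by 2.12 ± 0.18 and Slc35c1, the Golgi transporter of GDP-fucose, by 1.90 ± 0.17. Ostc, a subunit of the Stt3a form of the oligosaccharyltransferase, was at 1.16 and 1.52 against 3.68 and 3.71 and fell by 2.36 ± 0.18. Nus1, part of the enzyme that makes the dolichol chain, fell by 1.65 ± 0.16, and Lman1, the receptor that carries glycoproteins out of the endoplasmic reticulum, by 1.89 ± 0.18.

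Man1c1, a Golgi mannosidase related to Man1a2, was at -0.83 and -0.74 in stem cells and 1.67 and 1.79 in the others and fell 5.72-fold (limma adjusted p = 0.000535). The 2 listed genes that rose encode late capping enzymes, and both were above background in stem cells only. In stem cells St6gal1, which adds terminal sialic acid, was at least 3.24-fold higher, and B4galt2, a galactosyltransferase, at least 2.21-fold higher. Without non-stem cell epithelia replicate 1 or 2 fewer of the listed genes were called lower, as over all genes. Their median log2 difference was then -0.88 and -1.08. With no filter on dim probes 12 listed genes were lower and 2 higher, against 2.05% and 2.27% of all genes.

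Acinar and granular duct markers differed in opposite directions. Of 9 tested acinar markers 6 fell, with a median log2 difference of -2.65. Their summed signal, in multiples of the array's 75th percentile, was 3000 to 3290 in stem cells and 5080 on both non-stem arrays. Muc19, Cldn10 and Etv1 fell by 3.88 ± 0.15, 3.72 ± 0.15 and 3.61 ± 0.16, and none of the 9 was below background on all arrays. Markers of granular duct cells went the other way, with 4 of 7 higher and 1 lower and a summed signal of 1480 to 1510 in stem cells against 250 to 253 in the others. Erythroid markers fell, 4 of 4, with a summed signal of 39.0 to 39.4 against 161 to 200. The part of these cell types in the members' differences was not tested, and fewer cells of a type cannot be told apart from less RNA per cell in such sorted bulk samples.

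The unfolded protein response raises the capacity of the endoplasmic reticulum. Of 11 of its regulators listed and tested, 6 fell and 0 rose, against 16.7% and 14.4% of all genes tested. The other 5, Creb3l2, Mbtps1, Ern1, Ddit3 and Mbtps2, did not pass the test. The 3 of smallest p, named after their values were seen, were Creb3l1, a transcription factor of secretory cells that fell by 3.79 ± 0.16, Xbp1, which fell by 2.19 ± 0.15, and the kinase gene Eif2ak3, which fell by 1.42 ± 0.18. Atf6, named for its binding element, was at -0.08 and 0.00 against 0.46 and 0.75 and fell by 0.64 ± 0.17 (limma adjusted p = 0.0407). Without non-stem cell epithelia replicate 1 or 2 fewer of the 11 were called lower, as over all genes. Their median log2 difference was then -0.76 and -0.50, against -0.64 in the main setting.

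The promoters of the members were searched for the elements that Atf6 and Xbp1 are known to bind. RefSeq windows from 250 bases before to 50 after the start site (GRCm38.p6) were given for 33 of the 41 members and 27025 genes in all. The full endoplasmic reticulum stress element, CCAAT and CCACG separated by any 9 bases, on either strand, was in 1 of the 33 members, Alg12 (3.03%), and in 0.137% of all genes. Its last letters alone, CCACG, were in 18 members (54.5%) and in 35.5% of all genes. They were in 10 of the 22 members with a window that fell and in 8 of the 11 others. TGACGTGG, the other known element of Xbp1 and Atf6, was in 0 members and 0.714% of all genes, and its shorter form ACGTGG in 3 members (9.09%) and 9.40% of all genes. CCACG is contained in the full element, and its reverse complement overlaps ACGTGG. A match describes letters only, not binding.

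The stretches below show the full element of Alg12 and the CCACG nearest the start site upstream of the oligosaccharyltransferase members and of Man2a1, a member that rose, with the matched letters of either strand in capitals and the coding strand written 5′ to 3′. Within the whole window CCACG was in 5 of 7 oligosaccharyltransferase members with a window, and in Ddost and Dad1 it lay after the start site. Positions are counted from the start site and coordinates are on GRCm38.p6. The Alg12 stretch runs from -250 to -172 (chr15:88819490-88819568, minus strand), that of Rpn1 from -107 to -43 (chr6:88084366-88084430, plus strand), and that of Stt3a from -136 to -72 (chr9:36767694-36767758, minus strand). The Stt3b stretch runs from -250 to -205 (chr9:115310673-115310718, minus strand) and that of Man2a1 from -112 to -48 (chr17:64601537-64601601, plus strand).
Alg12: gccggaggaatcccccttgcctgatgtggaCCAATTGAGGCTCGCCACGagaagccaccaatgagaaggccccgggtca
Rpn1: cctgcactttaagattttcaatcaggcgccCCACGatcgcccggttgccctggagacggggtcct
Stt3a: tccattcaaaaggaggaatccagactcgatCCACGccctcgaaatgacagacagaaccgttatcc
Stt3b: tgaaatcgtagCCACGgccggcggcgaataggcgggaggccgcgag
Man2a1: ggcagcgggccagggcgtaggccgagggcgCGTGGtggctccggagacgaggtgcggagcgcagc
In the stretches shown, Rpn1, Stt3a and Stt3b, which fell, carry CCACG on the coding strand, and Man2a1, which rose, on the other strand. Mgat1, Alg1 and Dad1, which also fell, carry it on that other strand only, so the strand does not follow the direction of change. No window was given for Man1a2 and Man2a2, which also rose.

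The order of these medians was the same under each scaling tried. With the percentile over detected probes, quantile normalization, normexp and the authors' deposited values, the median log2 difference lay between -1.20 and -0.90 for the oligosaccharyltransferase genes and between -0.98 and -0.63 for lipid-linked assembly. The median over all genes tested lay between -0.10 and 0.13 under the same settings. Of the 26 members that fell, 20 kept the call under all 4 of these scalings and 8 under all 13 alternatives. Those 8 were Pmm2, Gmppa, Gmppb, Dpagt1, Alg9, Ddost, Mgat2 and Mgat4a.

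**Figure D4:**
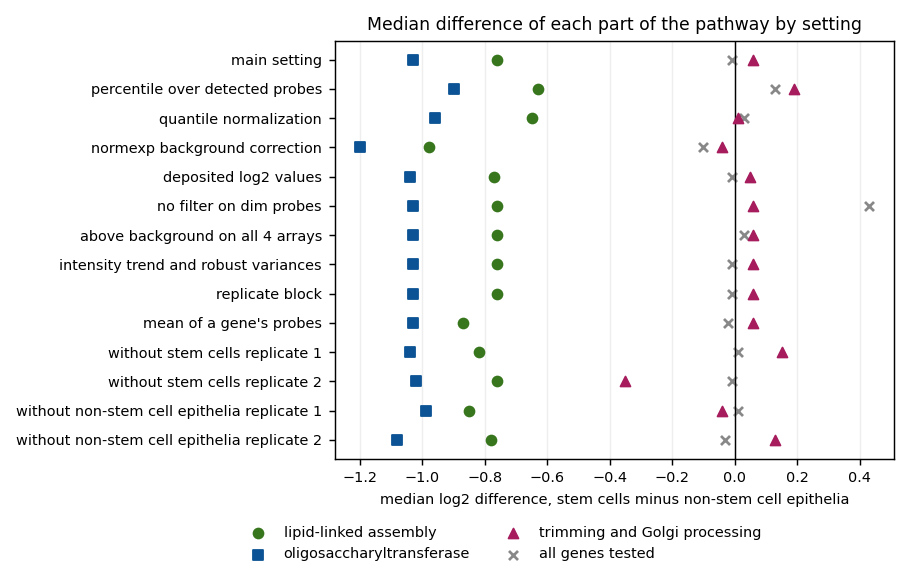
Median log2 difference, stem cells minus non-stem cell epithelia, of lipid-linked assembly, oligosaccharyltransferase, and trimming and Golgi processing genes, and of all genes tested, under the main setting and 13 alternatives. The first 2 stay left of 0 throughout, at -0.98 or above and -1.20 or above, while trimming and Golgi processing moves between -0.35 and 0.19.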

How the data were processed

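The authors deposited 1 Agilent scanner file per array with spot intensity on a linear scale, made with Feature Extraction 10.7.3.1 per the file headers (9.1 per the submitters' processing notes). Probe coordinates are on mm9, per the file headers. All 4 arrays lie on 1 slide, scanned together. The deposited series table holds log2 values by the authors. Set against the scanner values, its differences between stem cells replicate 1 and non-stem cell epithelia replicate 1 had a correlation of 1. Other pairs of arrays were not compared in this way, and the series table's baseline per probe is unknown. Its column medians were -0.28 and -0.55 for stem cells and -0.83 and -0.76 for non-stem cell epithelia.

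The background-corrected signal was taken as log2 and each array's 75th percentile of non-control spots subtracted. Outlier spots were left out and spots of a probe averaged. Of 55681 probes, the brightest per gene name was used. Groups were compared with limma 3.58.1 in R 4.3.3 (two-sided, threshold 0.05), checked on simulated data. Paralog ratios were compared by exact permutation. All 41 members are named. Of other pathway genes the 12 of smallest p past the threshold are named, except 1 that is not reported here, and up to 3 per marker list. Members, lists and tests were chosen with earlier results of these data known. Alternatives were 4 scalings, 2 filters, an intensity trend, the replicate block, averaged probes and leaving out each array. Promoter sequences are from RefSeq.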

Additional observations from a re-analysis of the deposited data

How the results depend on the processing

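Of the 26 members that fell, 25 kept a negative difference under every alternative, and Alg12 turned to 0.08 with normexp. Without each array in turn the members called lower ranged from 8 to 25 and those called higher from 0 to 3, and all genes from 752 to 3589 lower and from 597 to 3037 higher. In each such fit the lone array is assumed to vary like the other group. With no filter 8 members were lower and 0 higher, and 742 and 822 of all genes. With normexp 1 member was higher, 1596 genes were higher and 4730 lower, and higher calls were 25.2% of all calls, against 46.3% in the main setting and 59.5% with the percentile over detected probes. The lipid-linked assembly median was -0.63 with that percentile, -0.65 with quantile normalization, -0.98 with normexp and -0.87 with averaged probes, and -0.85 to -0.76 without each array. The oligosaccharyltransferase median was -0.90, -0.96 and -1.20 with the first 3 of these and -1.08 to -0.99 without each array. The trimming and Golgi median was -0.04 with normexp and -0.35 to 0.15 without each array. The cause of these moves was not tested. With the replicate number as a block 23 members were lower and 2 higher, against 16.8% and 13.7% of all genes. Same-numbered arrays deviated with a correlation of -0.103 over genes. With 2 arrays per group this cannot decide whether the numbers pair the arrays. The crossed pairing, added after the data were seen, gave 22 members lower and 3 higher, against 2368 and 2056 of all genes. Signals near background limit Alg12, Man1a and Mgat5.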
